A study of Mus musculus with 62 samples.

Results

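Livers of mice that carried a melanoma line which does not cause cachexia (NCAC) were compared with livers of mock-injected mice (Con) 2 weeks after injection, with 5 libraries in each arm. These are 10 of the 62 liver libraries of the study, chosen by their labels alone. A gene was tested where 5 or more of the week-2 libraries held 1 TPM or more of it, which gave 11179 of the 47643 in the table. TPM is a gene's length-scaled share of the transcripts in a library.

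The mice were females, 2 months old, and received cachectic melanoma cells (CAC), the non-cachectic cells or a mock injection. Livers were also taken at 4, 6 and 8 weeks. The sample labels name the strain as C57BL6/J, whereas the design text names NCI Ath/nude mice, which lack a thymus, and no label settles which is right. T cell markers were at a mean below 1 TPM for all 6 genes looked at in both arms. The labels call the libraries biological replicates and do not say which mouse each came from, so p-values measure the spread between libraries.

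Hepatocytes make cholesterol through a chain of enzymes that runs from acetyl-CoA over mevalonate and lanosterol. When sterols in the endoplasmic reticulum run low, SREBP2 is cut, enters the nucleus and binds sterol regulatory elements beside CCAAT boxes, where the factor NF-Y sits. The liver also holds a circadian clock, in which CLOCK and BMAL1 (Arntl) drive the Per, Cry and Nr1d1 genes, and the encoded proteins repress their own makers. Many liver genes, among them those for sterol and bile acid synthesis, are known to cycle with that clock and with feeding.

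The set of genes that differed was modest in number and size, and most of it was lower in the NCAC liver on the TPM scale. At a Benjamini-Hochberg adjusted p under 0.05 in limma, 82 genes were higher in NCAC (0.734% of those tested) and 324 were lower (2.9%), together 406 (3.63%). Their median size was 0.42 on the log2(TPM + 1) scale, with quartiles of 0.33 and 0.57, and 17 genes differed by at least 2-fold, 11 of them higher and 6 lower. The arms did not overlap for 304 of the 406, where 6.23% of all tested genes had arms that did not overlap. After median-of-ratios rescaling, which moved the median of all genes from -0.04 to 0, the split became 171 higher and 139 lower, so the excess of lower genes was not kept under that scaling. The 40 called genes that the naming rule gave were reversed under none of the alternatives tried. This was partly built in, since the rule asked the largest of them to keep their sign without any 1 library. A fit of all 62 libraries could not change a sign either. Of the 40, 40 stayed called with a pseudocount of 0.1, and 0 with all 62 libraries in the fit. Without Con replicate 5, 39 stayed called, and without Con replicate 4 or NCAC replicate 5, 2 did. The number of calls among all tested genes also depended on single libraries. It was 4 without NCAC replicate 5, 150, 95 and 81 without NCAC replicate 1, 2 or 3, and 59, 38 and 6 without Con replicate 2, 3 or 4. It was 701 without Con replicate 5 and 628 without CAC replicate 2, which enters through the shared estimate of spread.

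**Figure D1:**
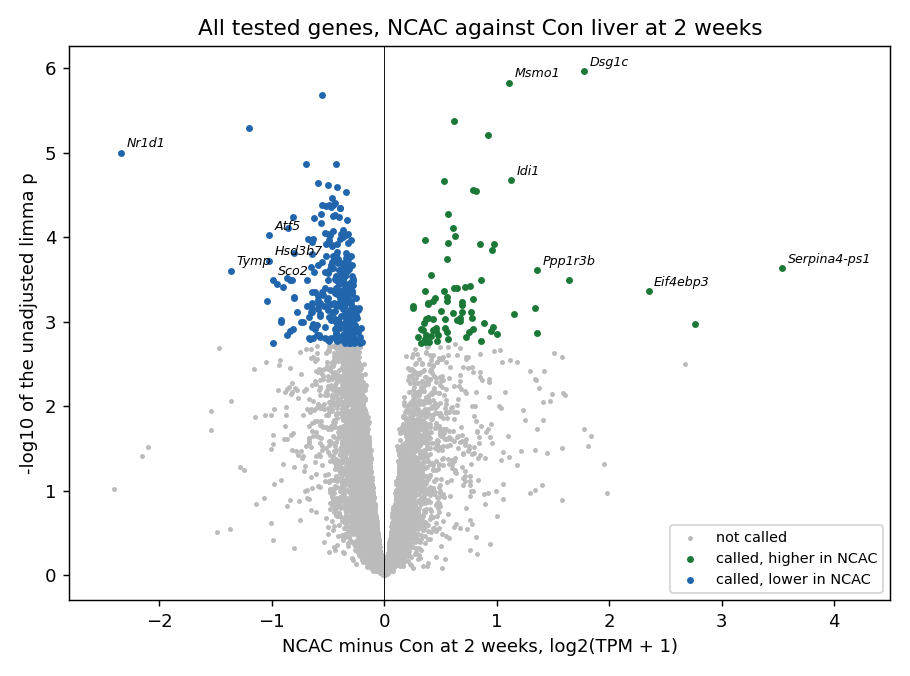
Each point is 1 of the 11179 tested genes; the x axis is NCAC minus Con at 2 weeks on log2(TPM + 1) and the y axis is -log10 of the unadjusted limma p. Called genes are coloured; 82 lie to the right of 0 and 324 to the left, most of the latter within 1 log2 unit.

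Enzymes of cholesterol synthesis rose in the NCAC liver. Of 29 tested genes for cholesterol synthesis and uptake, 10 were called higher and 0 lower, against 0.734% of all genes called higher, and 28 of the 29 differences were above 0. The median difference was 0.46, beside -0.04 over all genes, and 11 members were called after median-of-ratios rescaling. All 10 called members encode enzymes of synthesis, and none encodes an uptake or export protein.

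Msmo1 encodes the methylsterol monooxygenase that strips methyl groups from lanosterol products. It was at 106, 96, 110, 104 and 125 TPM in NCAC replicates 1 to 5 and at 50.2, 73.7, 38.4, 40.6 and 51.5 TPM in Con. Every NCAC library lay above every Con library, and the difference was 1.11 ± 0.15 (SE, adjusted p = 0.00764). Msmo1 was 1 of 3 genes called in each of the 10 fits that left out 1 library of these arms.

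Idi1, the isopentenyl diphosphate isomerase that interconverts the building blocks of isoprenoids, was at 260, 171, 249, 202 and 205 TPM in NCAC. In Con it was at 124, 156, 66.8, 83 and 82.3 TPM. The difference was 1.13 ± 0.19 (adjusted p = 0.0191), and here too the arms were separate, with Con replicate 2 nearest. Sqle, the squalene epoxidase, was at 58.7, 45.7, 50.4, 41.3 and 56.8 TPM in NCAC and at 22.6, 44.7, 17.8, 22.1 and 25.9 TPM in Con. Con replicate 2 lay within the NCAC range, and the difference was 0.96 ± 0.19 (adjusted p = 0.0241).

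A further 6 called enzymes had smaller differences. Fdps, which joins isoprenoid units, differed by 0.86 (96.2 to 222 TPM in Con, with replicate 2 inside the NCAC range, and 205 to 283 TPM in NCAC), Lss, which closes squalene epoxide into lanosterol, by 0.76, and Cyp51, the lanosterol demethylase, by 0.69. The later enzymes Hsd17b7, Nsdhl and Dhcr7 differed by 0.63, 0.56 and 0.46. Among members that did not pass, Hmgcs1 differed by 0.69 (adjusted p = 0.157) and Fdft1, squalene synthase, by 0.50 (adjusted p = 0.0742). Insig1, a sterol-sensing retention protein, differed by 0.05 and Srebf2, which encodes SREBP2, by 0.16, neither of them called.

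Con replicate 2 had the highest Con value for 23 of the 29 members. Without it 11 members were called, and without Con replicate 4 or NCAC replicate 5 only 1 was. Leaving out NCAC replicate 1, 2 or 3 left 4, 6 or 3, and leaving out Con replicate 3 left 2.

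**Figure D2:**
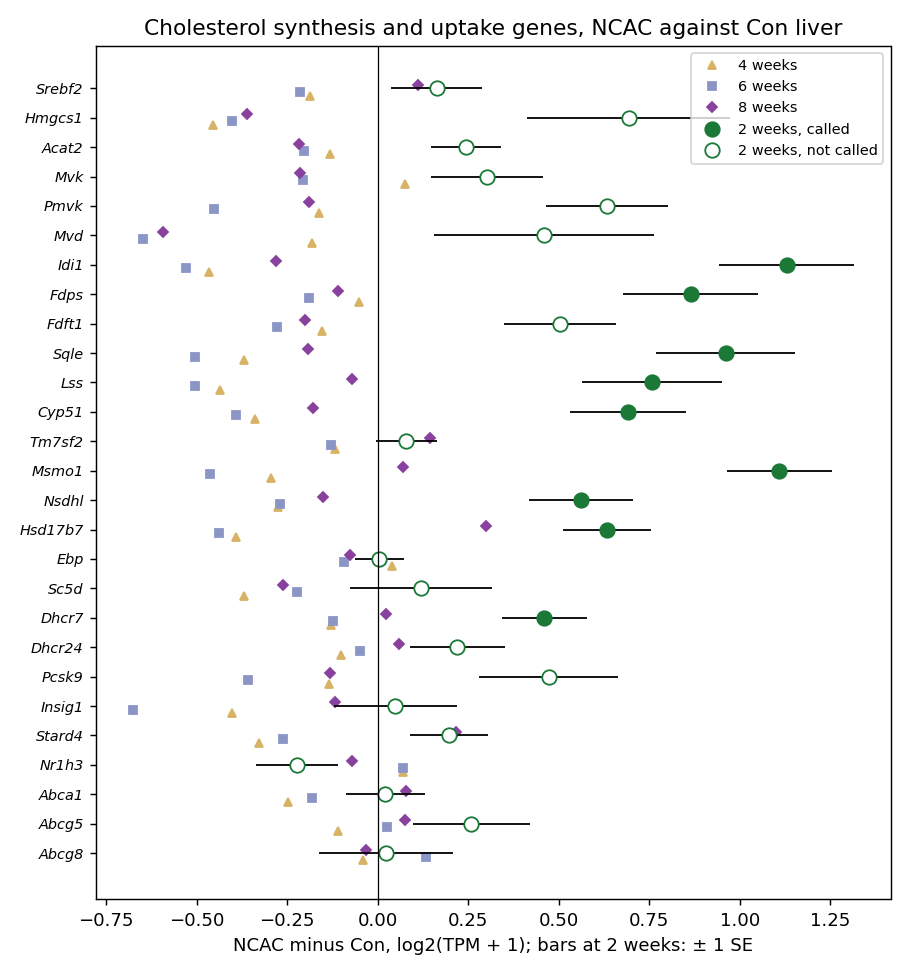
Differences of NCAC minus Con on log2(TPM + 1) for 27 of the 29 genes of cholesterol synthesis and uptake; large circles are 2 weeks with ± 1 SE, filled where called, and small symbols are 4, 6 and 8 weeks. At 2 weeks 26 of the 27 circles lie right of 0, while 24 genes lie left of it at 4 weeks and 24 at 6 weeks.

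The promoters of these enzymes are shown because the members moved together and because their shared regulator has known binding letters. Sequences are from RefSeq (GRCm38.p6), from 250 bases before to 50 after the start, and 21 of the 29 tested members had an entry, 7 of the called ones among them. The CCAAT box (CCAAT on either strand) was in the window of all 7 and of 18 of the 21, and in that of 41.1% of the 27025 genes of the table. Of the clock genes described below, 13 of the 17 with an entry also held it, so the box is not particular to the sterol list. Printed in capitals, its matches stood 3 times in Msmo1 (chr8:64733529-64733828, minus strand), 2 times in Idi1 (chr13:8885356-8885655, plus strand) and 1 time each in Lss (chr10:76531355-76531654, plus strand) and Cyp51 (chr5:4104648-4104947, minus strand).
Msmo1: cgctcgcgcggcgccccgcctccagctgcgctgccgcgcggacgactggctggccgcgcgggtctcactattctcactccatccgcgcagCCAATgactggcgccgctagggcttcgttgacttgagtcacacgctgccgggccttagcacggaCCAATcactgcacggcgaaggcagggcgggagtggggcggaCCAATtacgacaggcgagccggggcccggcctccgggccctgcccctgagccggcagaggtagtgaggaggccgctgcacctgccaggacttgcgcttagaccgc
Idi1: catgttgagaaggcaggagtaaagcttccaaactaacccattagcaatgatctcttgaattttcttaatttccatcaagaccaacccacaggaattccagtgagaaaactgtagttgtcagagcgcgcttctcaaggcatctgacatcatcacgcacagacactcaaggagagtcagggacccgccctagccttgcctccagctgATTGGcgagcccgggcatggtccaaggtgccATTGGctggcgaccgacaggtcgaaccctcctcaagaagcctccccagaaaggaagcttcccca
Lss: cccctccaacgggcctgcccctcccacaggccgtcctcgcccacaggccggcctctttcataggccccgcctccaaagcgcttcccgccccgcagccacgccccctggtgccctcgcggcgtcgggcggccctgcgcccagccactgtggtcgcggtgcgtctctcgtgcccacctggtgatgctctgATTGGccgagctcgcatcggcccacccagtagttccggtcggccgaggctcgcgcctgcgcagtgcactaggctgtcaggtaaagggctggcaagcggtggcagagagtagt
Cyp51: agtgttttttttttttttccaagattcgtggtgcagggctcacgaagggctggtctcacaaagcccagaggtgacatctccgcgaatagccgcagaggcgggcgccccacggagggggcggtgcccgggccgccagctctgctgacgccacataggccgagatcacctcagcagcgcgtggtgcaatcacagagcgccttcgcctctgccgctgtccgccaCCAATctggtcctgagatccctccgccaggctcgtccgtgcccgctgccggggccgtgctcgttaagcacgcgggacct
A strict sterol regulatory element, TCACNCCAC on either strand, was in the windows of 0 of the 7 called members and of 1 of the 21, Hmgcs1, and in those of 1.44% of all genes. These are matches of letters, not measured binding.

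At the later weeks most of these genes had differences of the other sign. The median of the 29 members was -0.18 at 4 weeks, -0.27 at 6 weeks and -0.08 at 8 weeks, and all 10 called members were below 0 at 4 and at 6 weeks. Mean Msmo1 was 50.9, 101, 132 and 99.6 TPM in Con at 2, 4, 6 and 8 weeks, and 108, 78.9, 98.4 and 113 TPM in NCAC. Idi1 was at 102, 214, 308 and 225 TPM in Con and at 217, 150, 216 and 199 TPM in NCAC. Sqle was at 26.6, 47.2, 62 and 51.9 TPM in Con and at 50.6, 34.9, 44.1 and 47.3 TPM in NCAC. In each of these genes Con was lowest at 2 weeks, and which arm moved was not tested. For Msmo1 the differences were -0.30, -0.46 and 0.07 at 4, 6 and 8 weeks, each with an SE of 0.24. The 2-week difference less the mean of the later ones was 1.34 ± 0.28 for Msmo1, and the smallest adjusted p of that contrast among the 29 members was 0.15. Across 12160 genes it called 0 genes (0%), with 1184 at an unadjusted p under 0.05, and 1 without Con replicate 2.

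The CAC arm was set against the same 5 Con libraries, so its differences are given side by side only. CAC minus Con was 0.97 for Msmo1 (adjusted p = 0.0063), 0.96 for Idi1 (adjusted p = 0.0116) and 0.74 for Sqle (adjusted p = 0.0348). The CAC and NCAC arms differed by -0.14 for Msmo1 (adjusted p = 0.558).

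**Figure D3:**
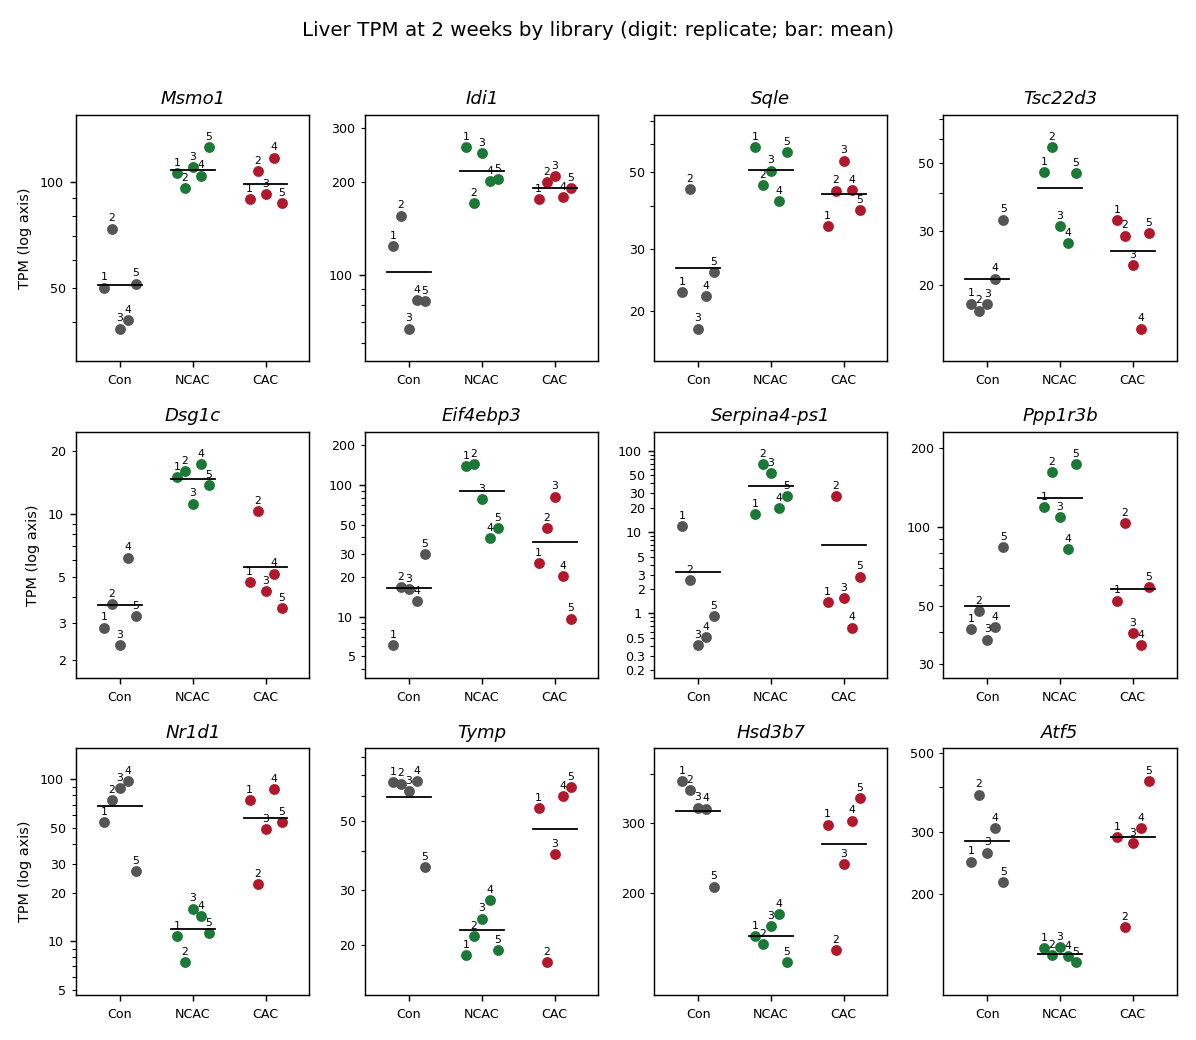
TPM on log axes for 12 genes in the 15 libraries of week 2, 1 point per library with its replicate digit and a bar at the mean. The upper 8 genes were called higher and the lower 4 called lower in NCAC than in Con; Con replicate 5 and CAC replicate 2 lie nearest to the NCAC points in several panels.

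Among the lower genes that the naming rule gave, a clock gene had the greatest difference. Nr1d1 (chromosome 11, 98767932 to 98775333, minus strand) encodes REV-ERB alpha, a haem-binding repressor of Arntl and of lipid genes. It was at 10.8, 7.42, 15.9, 14.3 and 11.2 TPM in NCAC and at 54.8, 74.4, 88.6, 97.9 and 27.1 TPM in Con. All NCAC values lay below all Con values, and the difference was -2.34 ± 0.36 (adjusted p = 0.0159). Its end overlaps that of Thra on the opposite strand by 1075 bases, and Thra, which differed by -0.51 (adjusted p = 0.0633), could share reads if strand was not used in counting.

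Few clock genes passed the test. Of 21 tested members 2 were called, Nr1d1 among them, which is 9.52% beside 3.63% of all genes. Without Con replicate 4 or NCAC replicate 5 no clock gene was called, and without Con replicate 1, 2 or 3 or NCAC replicate 1, 2 or 3 only 1 was. Leaving out CAC replicate 1 or 3 also left 1.

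Of the period and cryptochrome genes none passed. Per1 differed by 1.41 ± 0.47 (adjusted p = 0.0941), Per2 by 1.06 ± 0.46 (adjusted p = 0.181) and Cry1 by 1.18 ± 0.33 (adjusted p = 0.0608). Per2 lay between 19.6 and 21 TPM in the 5 NCAC libraries, and its Con values were 2.27, 9.46, 10.1, 11.7 and 22.3 TPM. Per3 was at 6.65 to 14.4 TPM in NCAC and 1.47 to 10.1 TPM in Con, and Cry2 at 11.3 to 14.5 and 10.4 to 16 TPM, with wide overlap in both genes. Usp2, a deubiquitinase under clock control, was between 19.5 and 23.7 TPM in NCAC and at 0.382, 3.54, 4.65, 10.5 and 21.9 TPM in Con. For Per2 and Usp2 the NCAC libraries were close to each other, and the Con libraries spread widely, with replicate 1 the lowest and replicate 5 the highest.

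Genes of the opposite phase and the output factor differed less. Arntl, which encodes BMAL1, was at 16.5, 2.93, 2.02, 2.18 and 1.05 TPM in Con replicates 1 to 5 and at 0.589 to 4 TPM in NCAC. Con replicates 2 to 5 lay within the NCAC range, and the difference was -0.54 (adjusted p = 0.649). Dbp, a clock output factor, differed by -0.28 (adjusted p = 0.837). The Cry1 promoter window (RefSeq, GRCm38.p6, chr10:85185005-85185304, minus strand) holds 1 E-box, CACGTG, the element that CLOCK and BMAL1 bind, shown in capitals. It is printed as an example of the 6 clock members of 17 with an entry that hold one, where 8.09% of all genes do.
Cry1: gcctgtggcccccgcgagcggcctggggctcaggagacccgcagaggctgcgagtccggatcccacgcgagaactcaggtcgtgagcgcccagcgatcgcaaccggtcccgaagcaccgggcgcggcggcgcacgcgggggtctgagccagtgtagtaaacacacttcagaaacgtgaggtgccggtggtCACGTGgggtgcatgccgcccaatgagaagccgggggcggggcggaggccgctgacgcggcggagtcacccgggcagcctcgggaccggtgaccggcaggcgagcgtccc

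The clock genes varied together across libraries. The first principal component of the 21 genes held 73.8% of their variance over the 15 libraries. It ran from -3.25 to -1.96 in NCAC and from -2.62 to 6.17 in Con, with Con replicate 5 at -2.62 and Con replicate 1 at 6.17. No label gives an hour of sampling. With that component as a covariate, an alternative chosen after seeing the data, 0 genes were called by limma (1893 at an unadjusted p under 0.05, smallest adjusted p 0.0532). In that fit the difference was 1.12 for Msmo1 (adjusted p = 0.0532) and 1.23 for Idi1 (adjusted p = 0.0748), neither called, while Hsd3b7 went from -1.02 to -0.62 and Cyp7a1 from 1.49 to 0.57. The part of the clock axis in the other differences was not tested beyond this fit.

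**Figure D4:**
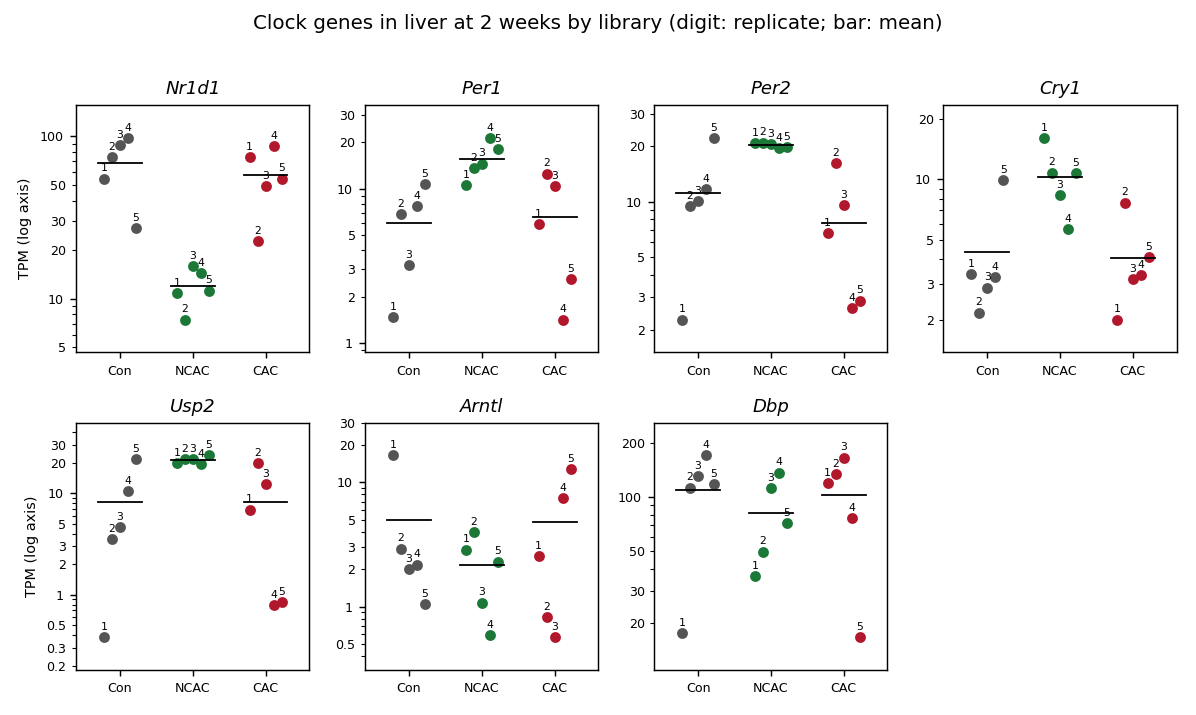
TPM on log axes for 7 clock genes in the 15 libraries of week 2, 1 point per library with its replicate digit and a bar at the mean. For Per2 and Usp2 the NCAC points are close together, and the Con points are spread over a wide range, for Usp2 between 0.382 and 21.9 TPM.

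Bile acids are made from cholesterol, and 4 of their genes were lower in NCAC than in Con. Of 27 tested members 4 were called lower and 0 higher, beside 2.9% of all genes called lower, with a median of -0.01. Hsd3b7, the enzyme after the first hydroxylation, fell from 322 ± 68.1 TPM in Con to 156 ± 16 TPM in NCAC (SD, n = 5 each), a difference of -1.02 ± 0.21 (adjusted p = 0.0256). Its NCAC values were 156, 149, 165, 177 and 134 TPM and its Con values 384, 364, 329, 327 and 208 TPM, so Con replicate 5 was again the nearest.

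The other 3 were Acox2, the side-chain oxidase of peroxisomes, Abcb11, the bile salt export pump, and Fgfr4, the receptor through which gut FGF15 holds synthesis down. They differed by -0.64, -0.63 and -0.48, each with arms that did not overlap. Cyp7a1, the rate-limiting enzyme of bile acid synthesis, went the other way without being called. It was at 347, 224, 348, 182 and 322 TPM in NCAC and at 42.1, 80.7, 65.3, 141 and 273 TPM in Con, a difference of 1.49 ± 0.48 (adjusted p = 0.0856, exact permutation p = 0.0238, 0.0952 adjusted over 12 genes). Only Con replicate 5 reached into the NCAC range. The 4 calls of the list went to 0 without Con replicate 2, Con replicate 4 or NCAC replicate 5, to 1 without Con replicate 3 and to 2 without NCAC replicate 2 or 3.

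Targets of the amino acid stress factor ATF4 included 2 that were lower in NCAC than in Con. Of 13 tested members, Atf5 and Trib3 were called lower and 0 higher, beside 2.9% of all genes called lower, with a median of -0.19. Atf5, a stress transcription factor abundant in liver, was at 141, 135, 142, 134 and 129 TPM in NCAC and at 247, 381, 262, 307 and 216 TPM in Con. The NCAC values fell in a narrow band under every Con value, and the difference was -1.02 ± 0.20 (adjusted p = 0.0217). Trib3, a pseudokinase that dampens AKT, was at 3.37, 2.08, 3.18, 4.64 and 3.78 TPM in NCAC and at 7.86, 7.08, 7.3, 10.8 and 4.86 TPM in Con (-0.95 ± 0.21, adjusted p = 0.0287). No member was called without Con replicate 2, 3 or 4 or NCAC replicate 5, 1 without NCAC replicate 2 or 3 and 4 without Con replicate 1.

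Other decreases were in genes outside the lists above. Tymp, thymidine phosphorylase, fell by 1.36 on the log2 scale, from 66.7, 65.8, 62.2, 67.1 and 35.6 TPM in Con to 18.6, 21.4, 24.3, 27.8 and 19.3 TPM in NCAC. Sco2, a copper chaperone of cytochrome oxidase, fell by 0.99, from 44.8 ± 7.72 to 21.9 ± 2.85 TPM. The annotations of Tymp (chromosome 15, 89371931 to 89377039) and Sco2 (89371637 to 89373846) share 1916 bases of the same strand, so their values may share reads and are not independent.

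Slc30a10, a manganese exporter, differed by -0.99, Cbs, cystathionine beta-synthase, by -0.90 and Sgk2, a kinase, by -0.92. Cbs was at 157, 226, 238, 209 and 248 TPM in NCAC and at 369, 460, 409, 489 and 297 TPM in Con, with no overlap. For Sgk2, NCAC replicate 2 at 18 TPM lay above Con replicate 5 at 14.4 TPM. An uncharacterised transcript, RP23-465D7.3, differed by -0.91.

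Among the genes much higher in NCAC outside the sterol pathway, Serpina4-ps1, annotated as a pseudogene of a serpin, had the greatest difference. It was at 16.7, 68.6, 53.8, 19.6 and 28.1 TPM in NCAC and at 11.8, 2.6, 0.404, 0.516 and 0.936 TPM in Con. The arms did not overlap, and the difference was 3.54 ± 0.74 (adjusted p = 0.0267). Mean Con was 3.26, 15.8, 58.3 and 50.6 TPM at 2, 4, 6 and 8 weeks. Mean NCAC was 37.4, 43.1, 47.6 and 13 TPM, and which arm moved was not tested for this gene. Reads of near-identical serpin copies could be split between them, which makes its level uncertain.

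Eif4ebp3 encodes a repressor of cap-dependent translation. It was at 140, 144, 78.3, 39.3 and 47.1 TPM in NCAC and at 6.04, 16.7, 16.1, 13.2 and 29.8 TPM in Con (2.35 ± 0.52, adjusted p = 0.0296). NCAC replicates 1 and 2 were the highest, and the arms were separate. Mean Eif4ebp3 was 16.4, 53.5, 40.2 and 27 TPM in Con at 2, 4, 6 and 8 weeks. In NCAC it was 89.8, 90.4, 48.2 and 70.9 TPM. Dsg1c, a desmosomal cadherin, was at 15, 16, 11.2, 17.3 and 13.8 TPM in NCAC and at 2.86, 3.7, 2.35, 6.18 and 3.24 TPM in Con. It differed by 1.78 ± 0.23 (adjusted p = 0.00764) and was called in each of the 10 fits that left out 1 library.

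The third gene called in all those fits was Tgm2, transglutaminase 2, at 40 ± 2.42 TPM in NCAC and 59.3 ± 4.82 TPM in Con, a difference of -0.56. It falls outside the rule for named genes and was picked after its values were seen.

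Ppp1r3b, a glycogen-targeting subunit of protein phosphatase 1, was at 119, 162, 109, 82.7 and 174 TPM in NCAC and at 40.8, 47.8, 37.3, 41.5 and 83.8 TPM in Con. Con replicate 5 stood just above NCAC replicate 4, and the difference was 1.36 ± 0.29 (adjusted p = 0.0267). Mean Ppp1r3b was 50.2, 105, 147 and 45.9 TPM in Con at 2, 4, 6 and 8 weeks. In NCAC it was 129, 80, 73 and 59.8 TPM. Ces1d, a carboxylesterase of lipid droplets, went from 619 ± 220 to 1170 ± 132 TPM (0.97 ± 0.24, adjusted p = 0.0419). Con replicate 5, at 1010 TPM, was the only Con library in the NCAC range.

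Most glucocorticoid-responsive genes had differences above 0, few of them called. Of 24 tested members 2 were called higher and 0 lower, beside 0.734% of all genes called higher. The median was 0.65 and 20 of 24 differences were above 0, beside 40.5% of all genes. Tsc22d3 (GILZ), a classic target of the glucocorticoid receptor, was at 46.7, 56.3, 31.1, 27.4 and 46.3 TPM in NCAC and at 17.4, 16.5, 17.3, 21 and 32.7 TPM in Con (0.95 ± 0.24, adjusted p = 0.0429). Con replicate 5 lay above the lower NCAC libraries. Cebpd, a transcription factor shared with the IL-6 response list, was at 4.5 to 7.45 TPM in NCAC and 2.77 to 4.41 TPM in Con, just without overlap (0.67 ± 0.16, adjusted p = 0.0387).

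Without Con replicate 5 the list had 6 called members, and without Con replicate 1, 2, 3 or 4 or NCAC replicate 1, 2 or 5 it had 0, with 1 left without NCAC replicate 3 or CAC replicate 1. Dusp1, a phosphatase induced by glucocorticoids, differed by 1.05 (adjusted p = 0.061), and Lpin1, a phosphatidate phosphatase, by 1.38 (adjusted p = 0.0807). Lpin1 was at 41.8 to 63.5 TPM in NCAC, at 10.1 to 17.9 TPM in 4 Con libraries and at 76.2 TPM in Con replicate 5.

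Heat shock genes had no call. Of 14 members 0 were called by limma and 8 were higher at an unadjusted p under 0.05, beside 7.01% of all genes, with a median of 0.41. After median-of-ratios rescaling or without Con replicate 5, 2 were called, and without NCAC replicate 4 or CAC replicate 2, 1 was. Hspa1b, an inducible HSP70, was at 45.4, 35.8, 13.6, 7.97 and 13.4 TPM in NCAC and at 0.893, 7.73, 6.93, 7.22 and 10.2 TPM in Con (1.61 ± 0.52, adjusted p = 0.0859). NCAC replicates 1 and 2 were the highest.

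Energy metabolism genes had few calls. Of 26 genes of gluconeogenesis and insulin signalling 3 were called, beside 3.63% of all genes. Foxo1, the insulin-restrained driver of glucose output, rose by 0.57, and Gckr, the glucokinase regulator, and Trib3 fell. Gckr was at 52.5 to 69 TPM in NCAC and 79.5 to 95.5 TPM in Con (-0.44 ± 0.08, adjusted p = 0.0201). The 3 calls of the list went to 0 without Con replicate 3, Con replicate 4 or NCAC replicate 5 and to 1 without NCAC replicate 2 or 3. Irs2, the insulin receptor substrate, differed by -0.93 (adjusted p = 0.0593), and Pck1, which makes phosphoenolpyruvate, by 0.47 (adjusted p = 0.38).

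Fatty acid oxidation had 0 of 44 members called by limma and 7 higher at an unadjusted p under 0.05, beside 7.01% of all genes. Of the 44 differences 36 were above 0, beside 40.5% of all genes, with a median of 0.15. Without Con replicate 5, 4 members were called, and without CAC replicate 3, 1 was. Among 31 genes of fatty acid and triglyceride synthesis, only Mlxipl, which encodes the glucose-sensing factor ChREBP, was called, lower by 0.40, a share near the 2.9% of all genes. The list had 0 calls after median-of-ratios rescaling and without Con replicate 2, 3 or 4 or NCAC replicate 1, 2, 3 or 5, 3 without Con replicate 5 and 2 without CAC replicate 2. Srebf1, its insulin-driven counterpart, was at 69.3, 73.3, 78.5, 76.8 and 77.8 TPM in NCAC and at 98.6, 97.6, 86.4, 104 and 92 TPM in Con. The arms did not overlap, yet the difference of -0.34 was not called (adjusted p = 0.0742). The respiratory chain had 0 of 74 members called by limma, with 14 higher at an unadjusted p under 0.05, beside 7.01% of all genes. Of its 74 differences 57 were above 0, beside 40.5% of all genes, with a median of 0.06. After median-of-ratios rescaling 2 were called, and without Con replicate 1 or 5, NCAC replicate 4 or CAC replicate 2, 1 was.

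Few amino acid and detoxification genes were called, with 3 in each list beside 3.63% of all genes. Of all called genes 79.8% were lower. Amt, of glycine cleavage, Hal, histidase, and Cbs were called lower among 50 members of amino acid catabolism and the urea cycle, with a median of -0.11. None of the 3 was called without Con replicate 2, 3 or 4 or NCAC replicate 1, 2, 3 or 5, and 6, 5 and 7 members were without Con replicate 1, Con replicate 5 or CAC replicate 2. Gstm4 and Gstm2, glutathione transferases that near-identical copies make uncertain, fell by 0.81 and 0.65 among 48 conjugation and NRF2 genes, in which Ces1d was the only increase. These 3 calls went to 0 without Con replicate 4 or NCAC replicate 5, to 1 without Con replicate 2 or 3 or NCAC replicate 1 or 3, and to 5 without Con replicate 5.

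Inflammatory and secretory genes had few calls. Of 30 acute phase genes 1 was called (3.33%), a share near the 3.63% of all genes. This was Lbp, the lipopolysaccharide-binding protein, at 37.4, 30.5, 35.3, 26.5 and 31.9 TPM in NCAC and 49.7, 51.2, 42.4, 54.4 and 49.2 TPM in Con (-0.60 ± 0.15, adjusted p = 0.0455). It was not called after median-of-ratios rescaling, nor without Con replicate 2, 3 or 4, any 1 NCAC library or CAC replicate 5. Saa1, serum amyloid A1, was at 118, 313, 901, 60.2 and 429 TPM in NCAC and at 93.6, 74, 78.9, 110 and 155 TPM in Con (1.30 ± 0.76, adjusted p = 0.324). The NCAC libraries spread widely, with replicate 4 below all Con libraries.

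Lcn2 and Orm2, other acute phase products, differed by -0.10 and -0.11 (adjusted p = 0.932 and 0.908). Plg, plasminogen, and Serpind1, heparin cofactor 2, were called lower by 0.33 and 0.28 among 41 complement and coagulation genes, beside 2.9% of all genes. The list had 0 calls after median-of-ratios rescaling and without Con replicate 2, 3 or 4 or NCAC replicate 1, 2, 3 or 5, and 6 without Con replicate 1. Leaving out CAC replicate 5 left 1. Of 41 interferon-stimulated genes, Irf1, an interferon regulatory factor, was called lower by 0.68, and 2 of the 41 differences were above 0, beside 40.5% of all genes, with a median of -0.24. The list had 0 calls without Con replicate 2, 3 or 4 or NCAC replicate 2, 3 or 5, and 2 without NCAC replicate 1 or 4.

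Il6ra, the IL-6 receptor, was at 22.8 to 36.8 TPM in NCAC and 8.34 to 27.9 TPM in Con (1.03 ± 0.28, adjusted p = 0.0541). Psmd1 and Psmd3 were called lower among 33 proteasome genes, beside 2.9% of all genes. Of the 33 differences 2 were above 0, beside 40.5% of all genes. By limma 14 were lower at an unadjusted p under 0.05, beside 16.1% of all genes. The median was -0.16, and -0.11 after median-of-ratios rescaling. In the list 0 were called after that rescaling, or without Con replicate 2, 3 or 4, NCAC replicate 1, 2, 3 or 5 or CAC replicate 1. Without CAC replicate 3, 1 was left.

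Of 12 genes set down to be described with or without a call, none passed the exact permutation test after adjustment, whose smallest possible p is 0.00794 for 5 against 5. Srebf1 reached that smallest value, and 0.0952 after adjustment over the 12. Gdf15, a stress hormone that curbs appetite, was at 2.61, 0.778, 0.787, 0.76 and 0.434 TPM in NCAC and at 1.54, 2.91, 3.29, 2.18 and 2.87 TPM in Con (-0.84 ± 0.24, exact permutation p = 0.0238, 0.0952 adjusted). Fgf21, a fasting hormone, was at most 1.5 TPM in any library of these arms, and Igf1 and Alb differed by 0.17 and -0.04. Mt2, a metallothionein, was at 127 to 490 TPM in NCAC and 62.9 to 367 TPM in Con (0.62, exact permutation p = 0.31). Igfbp1, a binding protein of insulin-like growth factors, was at 19.6 to 54.8 and 4.57 to 44.4 TPM (0.73, exact permutation p = 0.302), so both overlapped widely.

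Marker genes of hepatocytes and of other cells had overlapping sums in both arms. The summed TPM of 6 hepatocyte markers was 101000 to 120000 in NCAC and 107000 to 128000 in Con, and that of 6 Kupffer cell markers 123 to 241 and 175 to 293. Exocrine pancreas markers summed to at most 13.3 TPM in NCAC and 0.86 TPM in Con, while CAC libraries reached 919. Fewer cells of a type and less RNA per cell cannot be told apart in whole tissue. Of these short marker panels 1 gene was called, Car1, carbonic anhydrase 1 of red cells, among 4 erythroid markers tested. No other panel had a call, where 3.63% of all genes were called, so nothing is read from this single call. Car1 lost its call when any 1 of the 10 libraries, or CAC replicate 1, was left out. It was at 13.3 to 16.4 TPM in NCAC and 7.15 to 11.6 TPM in Con, while the summed erythroid markers were 642 to 1270 in NCAC and 949 to 1510 in Con. The 6 cholangiocyte markers of the short panel summed to 18.3 to 41.1 TPM in NCAC and 24.3 to 30.1 TPM in Con. In a longer cholangiocyte list of 8 tested genes 1 was called, lower, beside 2.9% of all genes. This was the keratin gene Krt18, at 107 to 169 TPM in NCAC and 163 to 277 TPM in Con (-0.67, adjusted p = 0.0472). Its level is far above the panel sums, so its call cannot be assigned to cholangiocytes. That list had 0 calls after median-of-ratios rescaling, without Con replicate 2, 3 or 4, NCAC replicate 1, 2, 3 or 5 or CAC replicate 1 or 5, and 2 without Con replicate 1, Con replicate 5 or CAC replicate 2. In other longer lists 0 members were called with all libraries. Differences above 0 were 1 of 16 for Kupffer cells and macrophages and 1 of 8 for B and plasma cells. They were 2 of 28 for matrix and stellate cells, 4 of 20 for sinusoidal endothelium and 4 of 5 for adipocytes, beside 40.5% of all genes.

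The libraries correlated at r of 0.965 to 0.989 with each other, and the first 2 components of the tested genes held 25.9% and 13.5% of the variance. On the first, NCAC lay between 10.7 and 20, and Con between -16.7 and -2.19 except Con replicate 5 at 14.9. Of the CAC libraries replicate 2, at 7.33, was nearest to NCAC. The counts of calls without Con replicate 5 or CAC replicate 2 stand above.

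The arms with the 2 melanoma lines were also compared with each other. CAC against NCAC called 994 genes (8.89%), 354 higher and 640 lower in CAC. Nr1d1 was 2.09 higher in CAC than in NCAC (adjusted p = 0.015), Atf5 1.03 higher (adjusted p = 0.0167) and Cyp7a1 2.32 lower on the log2 scale, a difference of -2.32 (adjusted p = 0.0188). CAC replicates 1 and 4 held 292 and 377 TPM of Ctrb1, a digestive enzyme gene of the pancreas, and without these 2 libraries 1 gene was called in place of 994. Leaving out CAC replicate 1, 3, 4 or 5 left 465, 233, 55 or 514 genes, leaving out NCAC replicate 1, 2, 3 or 5 left 558, 635, 351 or 145, and leaving out CAC replicate 2 gave 1840.

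The direction of the called genes at later weeks depended on the libraries and the scaling. Of the 406, 53.7% had the same sign at 4 weeks, 46.1% at 6 weeks and 50% at 8 weeks, beside 49.3%, 48.5% and 52.8% of all tested genes. The share at 4 weeks was 38.2% after median-of-ratios rescaling, beside 46% of all genes. It was 84.7%, beside 62.7% of all genes, without libraries rich in pancreas or muscle transcripts, 3 of which are NCAC libraries of that week. Nr1d1 differed by 0.05, 0.78 and -0.34 at 4, 6 and 8 weeks, each with an SE of 0.76. When all 62 libraries were fitted together, 0 genes were called at 2 weeks (1298 at an unadjusted p under 0.05). That fit has the same group means at 2 weeks, so the differences are the same and no sign could change. Of the 406 genes, 378 were at an unadjusted p under 0.05 in it. The median residual SD was 0.229, against 0.161 in the 15 libraries of week 2.

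**Figure D5:**
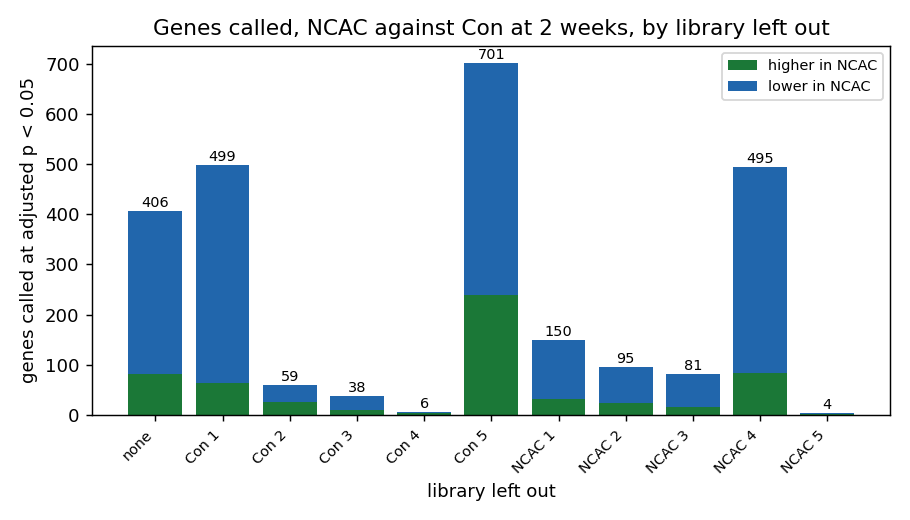
Number of genes called for NCAC against Con at 2 weeks, stacked by direction, with all libraries and with each library of the 2 arms left out. Counts run from 4 without NCAC replicate 5 to 701 without Con replicate 5, beside 406 with all libraries.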

How the data were processed

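The authors deposited 1 table of TPM, with 47643 symbols and 62 libraries of polyadenylated RNA made with a stranded kit, per the labels' protocols. The build was mm10, per the submitters' processing notes. For the aligner, quantifier and strand setting: not given in the sources used here. TPM keep no depth, so depth and counting error are unknown and no count model was used. Columns were matched to groups by name (0 unmapped).

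Genes that reached 1 TPM in 5 or more of the 15 libraries of week 2 were fitted as log2(TPM + 1) in limma 3.58.1 (R 4.3.3). The model gave CAC, NCAC and Con a mean each and used trended moderation. Fold changes on this scale understate changes of low genes. Genes are called at a Benjamini-Hochberg adjusted p under 0.05 over all genes tested. Later weeks and the contrast between weeks used all 62 libraries in 12 groups. Of called genes whose mean reached 5 TPM, the 10 largest in each direction that kept their sign without any 1 library were named, with 2 to 4 members of each of the 18 lists described (of 49) and 12 genes reported with or without a call. All 21 and 29 members of the clock and cholesterol lists were open to naming. Lists came from general knowledge. The members, the 49 lists and the tests were chosen with earlier results of these data known. Gene positions are from GENCODE vM21 and promoters from RefSeq, both GRCm38. The fit was tested on simulated data. Figures used Python and matplotlib.

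Alternatives were another pseudocount (0.1), other filters and scalings, moderation, libraries in the fit, a replicate block and a 2-fold minimum. Chosen after seeing the data were the clock covariate and leaving out each CAC library. Some members of the lists enter the counts and are not reported here by name.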

Additional observations from a re-analysis of the deposited data

Results flagged for a closer look

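In 87 genes and both arms, 174 groups of 5 in all, 17 libraries stood apart from the other 4 by Dixon's test at its 95% critical ratio of 0.71, which chance passes in about 1 in 20 groups. Of these, 10 were Con replicate 5. It was high for Ppp1r3b (83.8 TPM, next 47.8), Ces1d (1010 TPM, next 565), Tsc22d3 (32.7 TPM, next 21), Il6ra (27.9 TPM, next 13.3), Lpin1 (76.2 TPM, next 17.9) and Cry1 (9.91 TPM, next 3.37). It was also high for Acot1, an acyl-CoA thioesterase (38.8 TPM, next 12.4), Slc25a20, the carnitine carrier (86.9 TPM, next 60.1), and Foxo1 (11.9 TPM, next 6.79), and low for Tymp (35.6 TPM, next 62.2). In all 10 it lay on the side of the NCAC libraries. Genes were chosen by the naming rule, and 10 of the 17 fall on 1 library, so these genes are not independent.

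The other Con libraries that stood apart were replicate 1 for Serpina4-ps1 (11.8 TPM, next 2.6), replicate 2 for Cebpd (4.41 TPM, next 3.19) and replicate 3 for the alpha globin gene Hba-a2 (731 TPM, next 41.3), which could share reads with its near copy Hba-a1. Among NCAC libraries, replicate 1 stood apart for Gdf15 (2.61 TPM, next 0.787), Acot1 (64.5 TPM, next 33) and Tmcc2 (1.36 TPM, next 0.85), and replicate 2 for Sgk2 (18 TPM, next 12.7).

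CAC and NCAC differed by limma at an adjusted p under 0.05 for 27 of the 87 genes, beside 8.89% of all genes. Most of the 87 were chosen by their NCAC against Con values and the NCAC libraries enter both contrasts, so nothing is read from that share. The contrast tests the difference between the lines' effects, since the Con arm is shared. Lower in CAC, with CAC minus NCAC on the log2 scale, were Serpina4-ps1 (-3.02), Cyp7a1 (-2.32), Hspa1b (-1.93), Dsg1c (-1.31), Dusp1 (-1.21), Ppp1r3b (-1.2), Cry1 (-1.19), Il6ra (-1.04), Ces1d (-0.957), Dnaja1 (-0.787), Dnajb1 (-0.74) and Foxo1 (-0.718). Higher in CAC were Nr1d1 (2.09), Trib3 (1.27), Junb (1.23), RP23-465D7.3 (1.16), Slc30a10 (1.1), Atf5 (1.03), Sco2 (0.92), Lbp (0.715), Hsd3b7 (0.71), Gstm4 (0.7), Il4ra (0.484), Serpinf2 (0.469), Mbl1 (0.437), Fgfr4 (0.322) and Gckr (0.305). CAC replicates 1 and 4 carry pancreas transcripts, and without them 1 gene of all those tested was called between the lines. The part of those transcripts in these differences was not tested.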

How the results depend on the processing

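For NCAC against Con, 406 genes were called. The count was 147 with no filter on low values, 205 without the other-tissue libraries (at least 100 TPM of Ctrb1 or 10 TPM of Acta1), 17 at a 2-fold minimum, 0 with all 62 libraries in 1 fit and 0 with the clock component as a covariate. For CAC against NCAC, 994 genes, these counts were 324, 1, 52, 0 and 3. Leaving out each library in turn gave 4 to 701 genes for NCAC against Con, 55 to 1840 for CAC against NCAC and 0 to 1 for the contrast between weeks. The split of higher and lower calls was 82 and 324. It was 171 and 139 on rescaling by median of ratios, 155 and 189 with quantile-normalized values and 92 and 207 with the 20 highest genes removed. With the replicate block 14 genes were called for NCAC against Con and 545 for CAC against NCAC. Libraries with the same number did not deviate together (correlations of -0.0993 to 0.0898, beside -0.24 to 0.23 for other pairs). No pairing by number was seen, though so few correlations cannot exclude one.

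Genes that reversed were uncalled, though the largest called genes had been named only if they kept their sign without any 1 library. Alb was 0.0132 after median-of-ratios rescaling and Pck1 -0.0652 with the clock component. Without 1 library each in turn, Alb ran from -0.0795 to 0.00296, Lcn2 from -0.364 to 0.114, Orm2 from -0.384 to 0.0939 and Fgf21 from -0.168 to 0.0338. The causes were not tested. Depth is unknown, so what it limits cannot be stated.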
